A study of Mus musculus with 6 samples.

Results

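The epidermal growth factor (EGF) receptor family was followed through colon tumors from *Chrm3*-/- mice, which lack the M3 muscarinic receptor (M3R), and from WT mice. It was taken as 10 genes, namely the receptors *Egfr*, *Erbb2* and *Erbb3*, the ligands *Areg*, *Ereg*, *Hbegf*, *Tgfa*, *Btc* and *Egf*, and *Adam17*, the protease that sheds several of these ligands. Every probe annotated with one of these symbols was used, which gave 18 probes for 9 of the 10 genes, out of 45281 probes that named 19057 genes. *Areg* had no probe named here and was not analysed. The groups were 3 *Chrm3*-/- and 3 WT mice, both on a mixed 129S6/SvEvTac X CF1 background and labelled as 7 months old, with 1 tumor array per mouse. By the methods, all the mice were male, and all had been injected weekly with azoxymethane (AOM), a colon-selective carcinogen, from young adult age. The knockout was carried in every tissue, so that tumor cells and the cells around them lacked M3R alike. RNA was read on the Illumina MouseWG-6 BeadChip, on which each probe catches 1 stretch of a transcript.

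M3R signals through the G protein Gq. In colon cancer cells, its activation is known to release EGF-like ligands from the cell surface, and these then bind and activate the EGF receptor, a relay called transactivation. The ligands are made as membrane-anchored precursors that metalloproteinases such as Adam17 cut free. EGFR binds EGF, transforming growth factor alpha, amphiregulin, heparin-binding EGF, betacellulin and epiregulin, whereas ErbB2 binds no known ligand and works as a partner of the other receptors, and ErbB3 has a weak kinase and binds neuregulins. The comparison of the genotypes addressed whether the transcripts of this relay differed in tumors that formed without M3R.

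In the deposited table the 6 arrays held an identical set of normalized intensities in different orders, and the lowest 45.8% of each array were evenly spaced values up to 1.97. A value under 2 was therefore read as not above background. Fold changes were taken from limma on log2(intensity + 50) over the 22641 probes with a mean at or above the median, where a log2 fold change is that of *Chrm3*-/- over WT tumors, and 28 of these probes (0.124%) passed an adjusted p of 0.05, 0.0751% lower and 0.0486% higher in *Chrm3*-/- tumors. The deleted gene *Chrm3* was read by 1 dim probe, with 25.1, 32.1 and 21.9 in *Chrm3*-/- tumors, against 9.06, 1.80 and 1.93 in WT tumors. This goes against the direction of a deletion, but no source used here says whether the probe lies inside the deleted stretch, so its reading is no check of the labels. *Chrm3*-/- replicate 1 stood apart, with correlations of 0.916 to 0.95 (Pearson's r over all probes) with the other arrays, which had 0.970 to 0.986 among themselves. Where leaving out this array turned the fold change of a named family or pathway gene or moved it by more than 1.5 times, the value without it is given too. The mice were separate animals, and the number of arrays limits the precision, which is given by the standard errors and intervals. With 3 arrays a group, the smallest p of an exact two-sided permutation test is 0.1.

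None of the 11 tested probes of the family, which covered 7 genes, passed the adjusted p of 0.05 in limma (adjusted p = 0.991 to 0.997). The genotypes did not overlap at 1 of the 11, an *Egfr* probe, whereas they did not overlap at 10.7% of all tested probes, 5.5% with *Chrm3*-/- tumors lower and 5.2% with them higher. Of the 11 probes, 7 lay lower and 4 higher in *Chrm3*-/- tumors, with a median log2 fold change of -0.12. Over all tested probes, 47.6% lay lower, with a median of 0.01. All 4 tested *Egfr* probes were among the 7 lower ones, so the count of probes leans on 1 gene. Read by the brightest tested probe of each gene, *Egfr*, *Hbegf* and *Btc* lay lower, and *Erbb2*, *Tgfa*, *Egf* and *Adam17* higher. The other 7 probes of the family were too dim to be tested, with no value above 8.07 on any array. The filter took the mean over all 6 arrays, so that a dim probe can have passed through a few brighter arrays.

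*Egfr*, the receptor itself, had 6 probes, of which 4 were tested, and the mean of the *Chrm3*-/- tumors was 66.4% to 70.0% of the WT mean at each of these 4. The brightest, ILMN_2693922, is annotated to the *Egfr* transcript NM_207655 and read 239.6, 174 and 292 in *Chrm3*-/- tumors, against 337, 369 and 353 in WT tumors. All 3 *Chrm3*-/- tumors lay below all 3 WT tumors, and the WT tumors were close to each other. The means were 235 ± 59.2 in *Chrm3*-/- and 353 ± 16 in WT tumors (SD, n = 3 each). The log2 fold change was -0.52 (standard error 0.20, 95% interval -1.0 to -0.04 before adjustment), and 4.35% of all tested probes had a fold change as low or lower. The call did not pass over all probes (limma, adjusted p = 0.991), and the exact two-sided permutation test gave the smallest p the design allows, 0.1. In these whole tumors, fewer cells that carry a transcript and less of it per cell cannot be told apart.

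The next brightest *Egfr* probe, ILMN_1241496, read 137, 108 and 199.6 in *Chrm3*-/- tumors, against 198, 237 and 234 in WT tumors. Here *Chrm3*-/- replicate 3 lay just above the lowest WT tumor, so the genotypes touched. The means were 148 ± 46.9 in *Chrm3*-/- and 223 ± 21.9 in WT tumors (SD, n = 3 each). Its log2 fold change, -0.49 (standard error 0.22), had a 95% interval of -1.01 to 0.04. Across the 6 arrays this probe ran close to the brightest one (Pearson's r of 0.98, a description over arrays that share both genotypes).

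The other tested *Egfr* probes are annotated to another *Egfr* transcript, NM_007912, and were dimmer. ILMN_3052260 read 62.3, 24.1 and 43.0 in *Chrm3*-/- tumors, against 65.4, 61.2 and 63.6 in WT tumors. ILMN_3128725 read 83.8, 21.5 and 27.9 in *Chrm3*-/- tumors, against 54.2, 79.0 and 57.3 in WT tumors. At both, *Chrm3*-/- replicates 2 and 3 lay below every WT tumor, while *Chrm3*-/- replicate 1 lay within the WT range at ILMN_3052260 and above every WT tumor at ILMN_3128725. The fit gave -0.30 (standard error 0.19) for ILMN_3052260 and -0.32 (standard error 0.26) for ILMN_3128725, held small by the offset of 50, and on a plain log2 scale they were -0.66 and -0.76. Without the array that stands apart, *Chrm3*-/- replicate 1, they were -0.45 and -0.60 on the offset scale, and that of the brightest probe was -0.54.

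*Chrm3*-/- replicate 2 had the lowest value of the 6 arrays at all 4 tested *Egfr* probes. The same array was the lowest at 20.9% of all tested probes. Without it, the log2 fold changes of the 4 probes were -0.36, -0.33, -0.15 and -0.15 in the order in which the probes were described above. The 4 probes read 1 gene on the same arrays and are not 4 independent measurements. Of the probes that were not tested, ILMN_2614432, also annotated to NM_207655, read 2.95, 7.03 and 8.07 in *Chrm3*-/- tumors, against 4.25, 1.79 and 1.86 in WT tumors, close to background, and ILMN_2581001 was under 2 on all arrays.

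**Figure D1:**
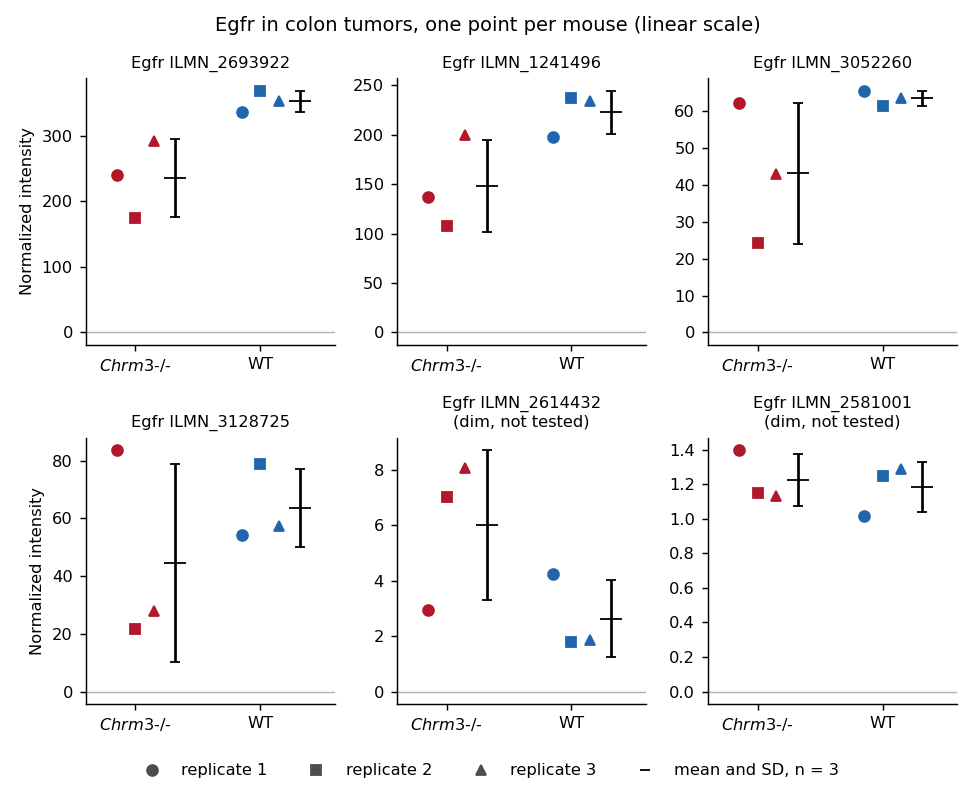
Normalized intensity (linear scale, from 0) of the 6 *Egfr* probes, with 1 point per mouse, *Chrm3*-/- tumors in red and WT tumors in blue, and the mean with its SD (n = 3) beside each group. At ILMN_2693922 the *Chrm3*-/- tumors sit between 174 and 292, below all WT tumors, whereas at ILMN_3128725 one *Chrm3*-/- tumor, at 83.8, is the highest of all.

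*Erbb2*, the receptor that needs a partner, lay in the other direction. Its single probe read 173, 236 and 249 in *Chrm3*-/- tumors, against 162, 214 and 181 in WT tumors, and the genotypes overlapped. The log2 fold change was 0.19 (standard error 0.20, 95% interval -0.28 to 0.66), and 0.32 without *Chrm3*-/- replicate 1. On the fold scale of intensity + 50, this interval runs from 0.823 to 1.58. Whether the fold changes of *Erbb2* and *Egfr* differ was not tested. *Erbb3*, the neuregulin receptor, could not be followed, as its only probe read 1.6, 2.84 and 5.89 in *Chrm3*-/- tumors, against 1.58, 1.92 and 5.24 in WT tumors, at or near background.

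Among the ligands, *Btc* and *Hbegf* had probes well above background. *Btc*, which encodes betacellulin, read 80.2, 218 and 245 in *Chrm3*-/- tumors, against 177, 251 and 126 in WT tumors. *Chrm3*-/- replicate 1 was the lowest of all, and the others of its genotype lay inside the WT range. The log2 fold change was -0.08 (standard error 0.37, 95% interval -0.95 to 0.79), and it turned to 0.29 (standard error 0.26) without *Chrm3*-/- replicate 1. *Hbegf*, which encodes heparin-binding EGF, a ligand shed by metalloproteinases, read 68.0, 125 and 99.0 in *Chrm3*-/- tumors, against 149, 89.4 and 111 in WT tumors. The groups overlapped, and the log2 fold change was -0.18 (standard error 0.23, 95% interval -0.72 to 0.37), and without *Chrm3*-/- replicate 1 it was -0.03. A second *Hbegf* probe did not exceed 7.87 on any array and was not tested.

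*Tgfa*, *Egf* and *Ereg* gave little or no signal. *Tgfa*, which encodes transforming growth factor alpha, read 1.84, 24.3 and 6.53 in *Chrm3*-/- tumors, against 10.4, 12.1 and 6.83 in WT tumors, with the lowest and the highest array both in *Chrm3*-/- tumors. Its log2 fold change of 0.01 (standard error 0.14) on the offset scale was -0.52 (standard error 0.98) on a plain log2 scale, and 0.12 on the offset scale without *Chrm3*-/- replicate 1, so that no direction can be given. The *Egf* probe ILMN_2684104 read 22.8, 6.20 and 2.89 in *Chrm3*-/- tumors, against 1.75, 1.85 and 3.31 in WT tumors, and *Chrm3*-/- replicate 1 stood highest. The other *Egf* probe, ILMN_1240039, lay the other way, with 1.97, 1.30 and 4.87 in *Chrm3*-/- tumors, against 11.7, 1.87 and 9.26 in WT tumors. The fit gave 0.20 (standard error 0.13) for ILMN_2684104, where 2 WT arrays were under 2, and -0.12 (standard error 0.09) for ILMN_1240039, where 2 *Chrm3*-/- arrays were. Without *Chrm3*-/- replicate 1, that of ILMN_2684104 was 0.060. *Ereg*, which encodes epiregulin, was under 2 at both of its probes on all 6 arrays, so its level had only an upper bound.

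*Chrm3*-/- replicate 1 had the lowest value of the 6 arrays for *Btc*, *Hbegf* and *Tgfa* alike. The same array was the lowest at 29.9% of all tested probes, more often than any other array, and the highest at 24.5%. *Ereg*, *Areg* and *Btc* lie near each other on one chromosome in the RefSeq gene table of GRCm38.p6. Of these neighbors, 1 could be tested.

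*Adam17*, the ligand sheddase, was measured well by ILMN_2594718, with 496, 342 and 468 in *Chrm3*-/- tumors, against 465, 374 and 395 in WT tumors. The groups overlapped, and *Chrm3*-/- tumors held both the highest and the lowest value. The means were 435 ± 82.3 in *Chrm3*-/- and 411 ± 47.5 in WT tumors (SD, n = 3 each). The log2 fold change was 0.06 (standard error 0.20), and its 95% interval of -0.40 to 0.53 leaves room for folds from 0.758 to 1.44 on the scale of intensity + 50. The other *Adam17* probe, ILMN_1243942, was too dim to be tested, with 1.52, 1.31 and 1.61 in *Chrm3*-/- tumors, against 3.28, 2.62 and 1.93 in WT tumors. The genotypes did not overlap there, but all *Chrm3*-/- values and 1 WT value were under 2.

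**Figure D2:**
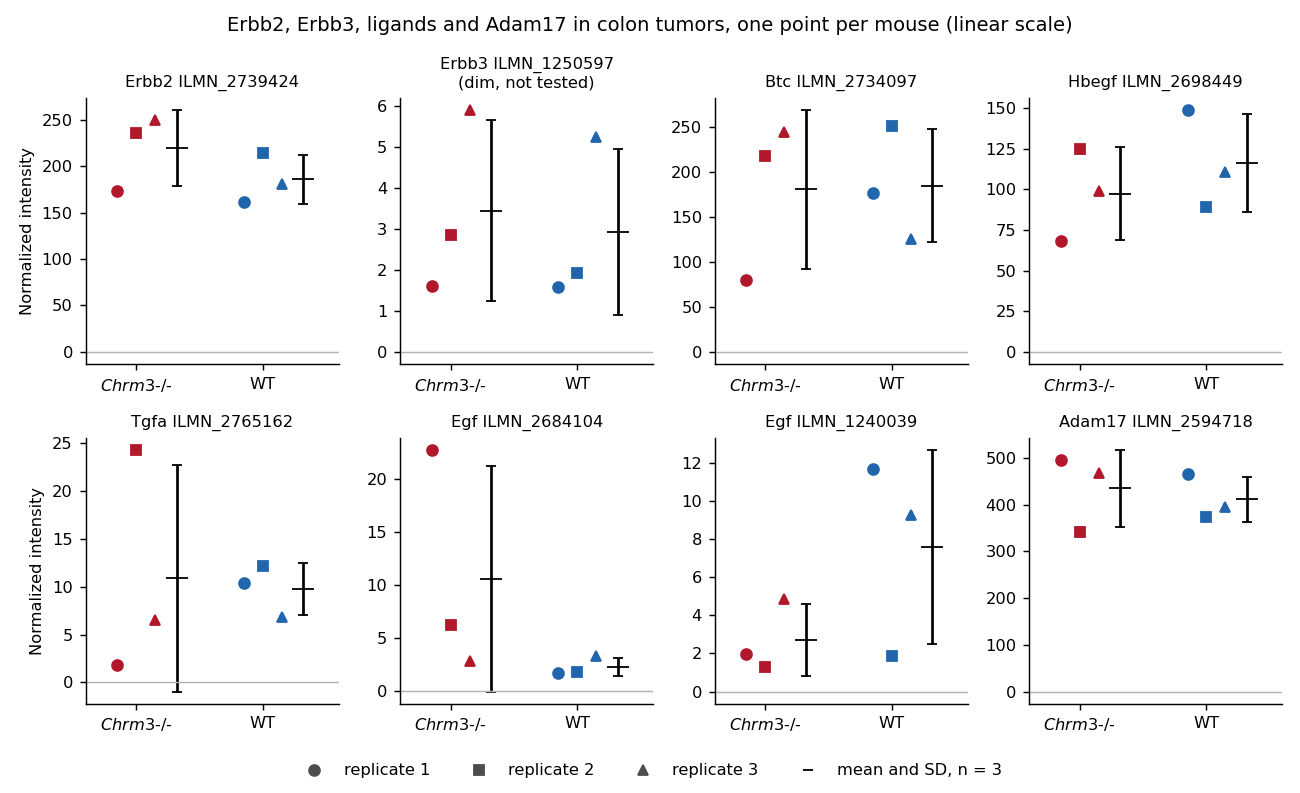
Normalized intensity (linear scale, from 0) of the probes of *Erbb2*, *Erbb3*, *Btc* and *Tgfa*, of *Hbegf* ILMN_2698449, of both *Egf* probes and of *Adam17* ILMN_2594718, with 1 point per mouse, *Chrm3*-/- tumors in red and WT tumors in blue, and the mean with its SD (n = 3) beside each group. The genotypes overlap in all 8 panels, and the highest *Erbb3* value, 5.89, is near background.

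**Figure D3:**
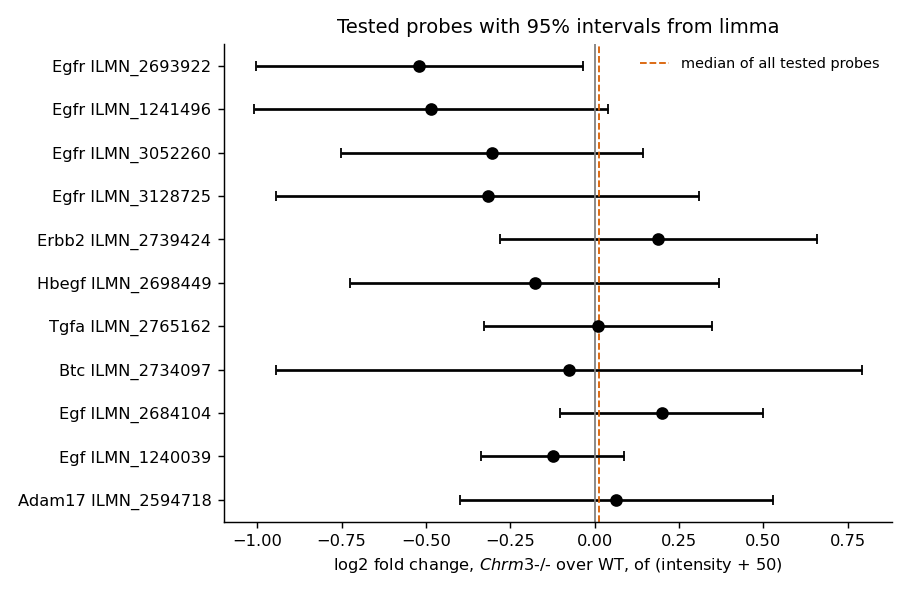
Log2 fold change (*Chrm3*-/- over WT tumors) of intensity + 50 for the 11 tested probes, with bars for the 95% intervals of limma before adjustment and a dashed line for the median of all tested probes, 0.01. The 4 *Egfr* probes lie at -0.52 to -0.30, and 1 of the 11 intervals, that of ILMN_2693922, excludes 0.

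Leaving out each array in turn kept the *Egfr* fold changes below 0 at all 4 probes. For the brightest probe they ran from -0.66, without *Chrm3*-/- replicate 3, to -0.36, without *Chrm3*-/- replicate 2. *Btc*, in contrast, ran from -0.30 to 0.29 and *Adam17* from -0.03, without *Chrm3*-/- replicate 1, to 0.21, and *Erbb2* stayed above 0, from 0.11 to 0.32. With arrays weighted by arrayWeights of limma, a step that did not converge, the brightest *Egfr* probe had -0.28 (standard error 0.14, limma adjusted p = 0.343). *Chrm3*-/- replicate 3, the highest *Chrm3*-/- array at this probe, took a weight of 6.12, against 0.256 and 0.386 for the other *Chrm3*-/- arrays. The weighted *Chrm3*-/- mean was therefore close to that 1 array.

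**Figure D4:**
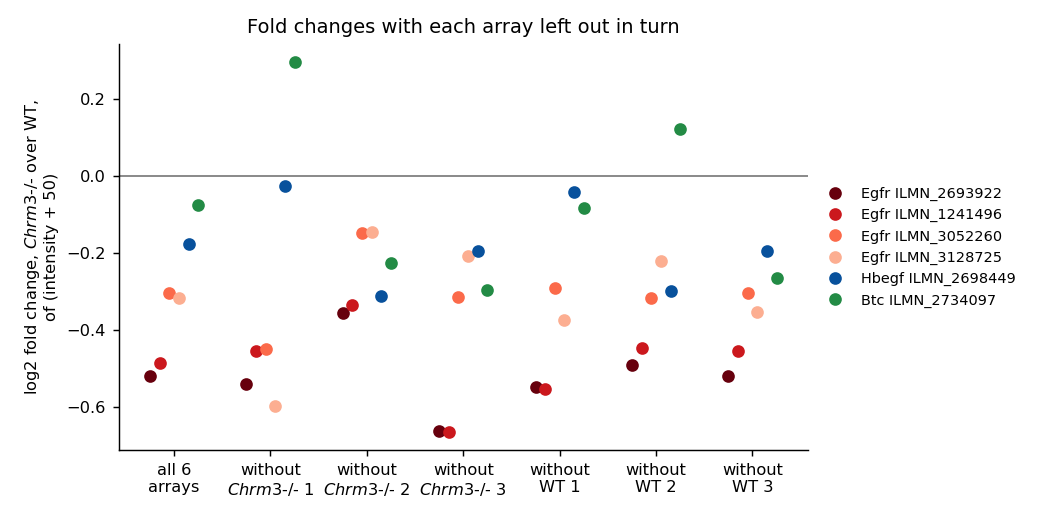
Log2 fold change (*Chrm3*-/- over WT tumors) of intensity + 50 for the 4 *Egfr* probes, *Hbegf* and *Btc*, with all 6 arrays and with each array left out. The *Egfr* points stay below 0 throughout, from -0.66 to -0.15, while *Btc* reaches 0.29 without *Chrm3*-/- replicate 1.

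The rest of the pathway was described with 5 lists of 77 genes, of which 58 were tested, each by its brightest tested probe. None passed the adjusted p of 0.05 in limma, 40 lay lower and 18 higher in *Chrm3*-/- tumors, and the median log2 fold change was -0.10, or -0.04 without *Chrm3*-/- replicate 1. The genotypes did not overlap for 5 of the 58, where the share over all tested probes was 10.7%. These were *Akt1*, *Errfi1*, *Phlda1*, *Dusp4* and *Epgn*.

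Among the lists, genes that EGFR signaling is known to induce lay furthest from WT, with 11 of 13 lower in *Chrm3*-/- tumors. Their median log2 fold change was -0.57, which was -0.26 without *Chrm3*-/- replicate 1. The share that lay lower over all tested probes was 47.6%. The lists were chosen with earlier results of these data known, so the place of this list cannot show a change in EGFR signaling. Whether that signaling differed was not tested. *Phlda1*, a growth factor response gene, read 495, 1953 and 2419 in *Chrm3*-/- tumors, against 6392, 3533 and 4419.5 in WT tumors. All *Chrm3*-/- tumors lay below all WT tumors, and the fit gave -1.75 (standard error 0.57, limma adjusted p = 0.891), or -1.08 without *Chrm3*-/- replicate 1. *Dusp4*, a phosphatase that turns off MAP kinases, read 192, 957 and 681 in *Chrm3*-/- tumors, against 1690.4, 1128 and 1014 in WT tumors, again without overlap. Its log2 fold change was -1.21 (standard error 0.52), and -0.60 without *Chrm3*-/- replicate 1. *Ccnd1*, which encodes cyclin D1, read 1862, 4017 and 2651 in *Chrm3*-/- tumors, against 6122, 3798 and 4698 in WT tumors, and *Plaur*, the urokinase receptor, 40.9, 62.0 and 100.1 in *Chrm3*-/- tumors, against 136, 132 and 98.5 in WT tumors. For both, 1 *Chrm3*-/- tumor lay above the lowest WT tumor, and the fits gave -0.81 (standard error 0.31) for *Ccnd1* and -0.57 (standard error 0.24) for *Plaur*. *Ptgs2* and *Fosl1* were not tested. By qPCR, the paper reports *Ccnd1* as unchanged in *Chrm3*-/- tumors, and *Egfr* and *Ptgs2* as reduced.

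Among negative regulators of the receptors, 10 of 16 lay lower, with a median of -0.05, which was 0.08 when each gene was read by its probe of smallest p. *Errfi1*, an inhibitor that binds the EGFR kinase, read 1172, 1334 and 1316 in *Chrm3*-/- tumors, against 1016, 1056 and 1035 in WT tumors. All *Chrm3*-/- tumors lay above all WT tumors by a small margin, and the log2 fold change was 0.28 (standard error 0.14, limma adjusted p = 0.991). *Socs3*, a feedback inhibitor of cytokine signaling, *Ptpn1*, a tyrosine phosphatase, and *Cbl*, a ubiquitin ligase that sends the receptor for degradation, had -0.62 (standard error 0.31), 0.27 (standard error 0.20) and -0.13 (standard error 0.08). Without *Chrm3*-/- replicate 1, *Socs3* was at -0.34 and the median of the list was 0.011. The *Cbl* probe was close to background.

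Of adaptors and kinases downstream of the receptors, 9 of 15 lay lower, with a median of -0.03. *Shc1*, an adaptor that docks on the receptor, had -0.20 (standard error 0.14), *Src*, a kinase that acts between G protein-coupled receptors and EGFR, -0.29 (standard error 0.20), and *Map2k1*, a kinase upstream of ERK, 0.30 (standard error 0.26). *Map2k1* rested on *Chrm3*-/- replicate 1, and without that array its log2 fold change was 0.035. *Akt1*, a survival kinase, read 17.4, 11.1 and 17.7 in *Chrm3*-/- tumors, against 9.05, 10.1 and 5.41 in WT tumors, a dim probe with 0.17 (standard error 0.09).

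Other sheddases and regulators of Adam17 lay lower in 8 of 11, with a median of -0.21, or -0.02 without *Chrm3*-/- replicate 1. *Timp3*, an inhibitor of Adam17, lay at -0.48 (standard error 0.37), *Adam12*, a sheddase of heparin-binding EGF, -0.37 (standard error 0.26), *Adam8* -0.25 (standard error 0.19) and *Adam10*, which sheds EGF and betacellulin, -0.20 (standard error 0.18). The genotypes overlapped for each of these, and without *Chrm3*-/- replicate 1, in which it read 10.6, *Adam10* was at -0.043. Of the remaining ligands, *Epgn*, which encodes epigen, read 6.99, 1.78 and 5.04 in *Chrm3*-/- tumors, against 11.8, 9.91 and 8.12 in WT tumors, near background, while *Nrg1* and *Nrg4*, which encode neuregulins, had -0.18 (standard error 0.31) and 0.16 (standard error 0.18). Without *Chrm3*-/- replicate 1, *Nrg1* turned to 0.13. The median of these 3 genes was -0.14, and 0.13 without *Chrm3*-/- replicate 1.

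**Figure D5:**
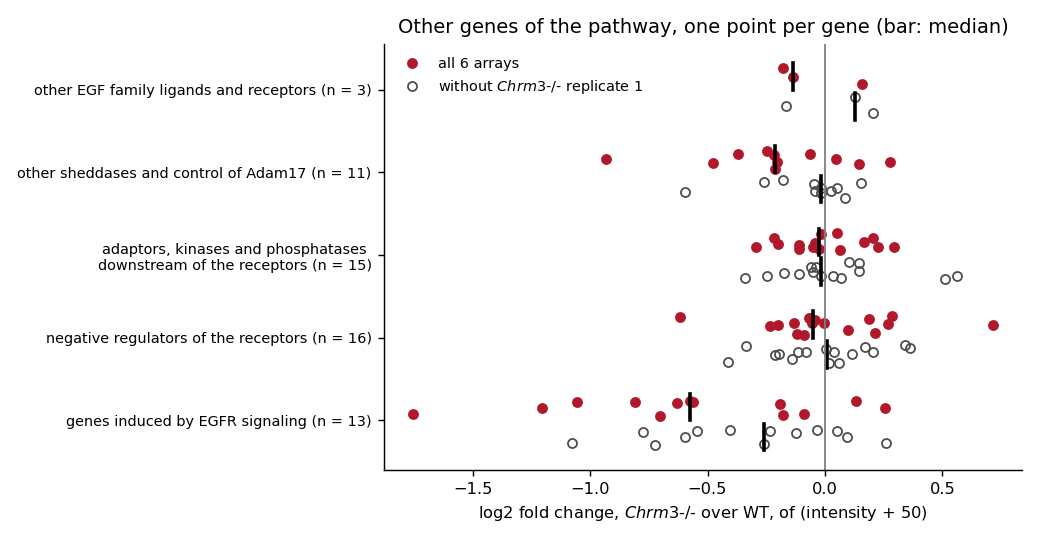
Log2 fold change (*Chrm3*-/- over WT tumors) of intensity + 50 for the 58 tested genes of the 5 lists, with 1 point per gene, filled for all 6 arrays and open without *Chrm3*-/- replicate 1, and a bar at each median. The median of the genes induced by EGFR signaling is -0.57 with all arrays and -0.26 without that array.

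The makeup of the tumors differed between arrays as well. Summed over 8 markers, epithelial transcripts ran from 29136 to 36172 in *Chrm3*-/- tumors and from 26338 to 33104 in WT tumors, and 3 of the 8 lay lower in *Chrm3*-/- tumors. The keratin gene *Krt8* read 13369 or more on all arrays, whereas the *Epcam* probe was dim throughout, with 1.13, 1.06 and 2.03 in *Chrm3*-/- tumors, against 8.67, 11.1 and 12.1 in WT tumors. Fibroblast markers lay lower in *Chrm3*-/- tumors in 6 of 6, with sums of 8941 to 9585 in *Chrm3*-/- and 12229 to 15765 in WT tumors. Most of each sum came from *Dcn*. The genotypes overlapped at *Lum*, which was highest in *Chrm3*-/- replicate 1 (351). Neutrophil markers lay lower in 4 of 4, with sums of 26.3 to 682 in *Chrm3*-/- and 629 to 2824 in WT tumors. Smooth muscle markers lay higher in 7 of 7 and T cell markers in 4 of 4. Smooth muscle sums were 37828, 9629 and 15044 in *Chrm3*-/- and 7808 to 12565 in WT tumors, so that *Chrm3*-/- replicate 2 lay inside the WT range. T cell sums were 3313, 54.5 and 332 in *Chrm3*-/- and 266 to 720.1 in WT tumors, so that replicate 1 alone of the *Chrm3*-/- tumors lay above the WT range. None of these markers passed the adjusted p in limma, and their part in the *Egfr* values was not tested.

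Within the *Chrm3*-/- tumors, replicate 2, the lowest in *Egfr*, was also the lowest of the 6 arrays in the summed markers of absorptive colonocytes, goblet cells, enteroendocrine cells, macrophages, T cells and B cells. Its colonocyte sum was 2179, against 46054 and 8534 in the other *Chrm3*-/- tumors and 3858 to 10863 in WT tumors. Replicate 1, the lowest in *Btc*, *Hbegf* and *Tgfa*, had the highest sums in the same 6 lists and in smooth muscle markers, at 37828 against 9629 and 15044 in the other *Chrm3*-/- tumors and 7808 to 12565 in WT tumors. The sums are led by the brightest genes, and not every list member followed them. Of the macrophage markers, *Csf1r* and *Lyz2* were highest in replicate 1. *Adgre1* was highest in WT replicate 3 (440) and *Cd14* in *Chrm3*-/- replicate 3 (1263), while *Itgam* was near background. At the brightest *Egfr* probe *Chrm3*-/- replicate 1 read 239.6, below every WT tumor, and at ILMN_3128725 it read 83.8, above every WT tumor. The part of these cell types in the values of the receptors and ligands was not tested.

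Over the 6 arrays, the genes whose pattern was most like that of the brightest *Egfr* probe were *Specc1* (Pearson's r = 0.994), *Cd177*, a surface protein of neutrophils (r = 0.994), and *Pmaip1*, which encodes the cell death protein Noxa (r = 0.989). *Cd177* read 477, 42.6 and 850.2 in *Chrm3*-/- tumors, against 1659, 2543 and 2107 in WT tumors, in the same order as *Egfr*. The summed neutrophil markers ran in another order, with 26.3, 497 and 682 in *Chrm3*-/- tumors, against 2824, 629 and 1470 in WT tumors. With 6 arrays, 129 of 19220 named probes reached an r of at least 0.9 and 39 an r of at least 0.95. The patterns are given as a description, since the arrays share genotype and tumor makeup.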

How the data were processed

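Colon tumor RNA of 3 *Chrm3*-/- and 3 WT mice was measured with 1 array each. The deposited intensity values are linear and, by the methods, had been cubic spline normalized by the authors with no subtraction of background. Another table, of signals before normalization, was left out because its 6 columns carry names that match no sample. Values were analysed as log2(intensity + 50), which makes fold changes of dim probes smaller, and probes with a mean at or above the median were tested in limma 3.58.1 (R 4.3.3), by lmFit and eBayes with a trend and genotype as the only term, with two-sided p-values adjusted (Benjamini-Hochberg) over 22641 probes. Standard errors had a median of 0.19 on the log2 scale. Symbols came from the platform annotation. It gave a single gene for 34885 probes and several genes for 18, and it did not list 10378. No symbol was changed through the gene table. Named genes were the 10 members, up to 4 genes with the smallest p in each pathway list, and the 3 most like *Egfr*. Non-overlapping genes of the lists were named as well. The members and lists were chosen with earlier results of these data known. Alternatives were other offsets and filters, the replicate number as a block, no variance trend, arrayWeights, the unpaired test of the methods' section on statistics, centred arrays, averaged probes, and each array left out. The limma step was run on simulated data with planted changes larger than the *Egfr* fold changes. It therefore does not show how often changes of the size seen for *Egfr* would be found. Python 3.11.15 and pandas 2.3.3 were used for the tables.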

Additional observations from a re-analysis of the deposited data

How the results depend on the processing

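No member probe passed the adjusted p of 0.05 under any of the 17 alternatives, where the smallest adjusted p was 0.152, for *Egfr* ILMN_3128725 with arrayWeights, and by an unpaired test at an unadjusted p of 0.05 1 member probe passed, beside 1238 of all 22641. Of 178 recomputed fold changes of member probes, 169 kept their direction and 9 turned, none of them of *Egfr*. The other filters, the replicate block, no variance trend, centred arrays and the unpaired test gave exactly the fold changes of the main fit. So did averaged probes for genes with 1 tested probe. Those comparisons counted as kept without testing the direction. *Tgfa* turned with an offset of 16 (-0.021), on a plain log2 scale (-0.52), with arrayWeights (-0.057), without *Chrm3*-/- replicate 2 (-0.14) and without WT replicate 3 (-0.03). *Btc* turned with arrayWeights (0.33) and without *Chrm3*-/- replicate 1 (0.29) or WT replicate 2 (0.12), with a range of -0.30 to 0.29 over the arrays left out, and *Adam17* turned without *Chrm3*-/- replicate 1 (-0.029), with a range up to 0.21. Over all tested probes, the count of 28 was 12 with no filter, 44 without an offset, 252 with arrayWeights, which did not converge, 9 with the unpaired test after adjustment, and 4 to 31 with one array left out. It was 1 with the replicate number as a block, and the cause of these changes was not tested. The deviations of same-numbered tumors from their group means had correlations of -0.15, -0.03 and 0.02, and those of differently numbered tumors ran from -0.145 to 0.149. With 3 arrays a group, these values cannot show whether same-numbered tumors shared a batch. The block cannot change a fold change, as each replicate number held both genotypes. *Egfr* ILMN_2693922 thus had the same -0.52 with the block (limma, adjusted p = 0.996). The 7 dim member probes have no measured fold.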
